A study of Mus musculus with 2 samples.

Results

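The interferon-gamma-induced GTPase genes described here are 10 of the 32285 genes counted in single LSK cells of mouse bone marrow, chosen by name: Irgm1, Irgm2, Igtp, Iigp1, Ifi47, Tgtp2, Gbp2, Gbp3, Gbp4 and Gbp7. LSK cells lack the surface markers of mature blood lineages, carry Sca-1 and carry much Kit; the sort holds blood stem cells and early multipotent progenitors. The cells came from the thigh and shin bones of young wild-type (WT) mice and of young mice described as lacking IκB, called IkBKO, and the labels name no treatment of either group. IκB proteins hold NF-κB transcription factors inactive. The labels do not name the altered IκB genes, the strain or the number of mice in a pool. For each of 2 replicates, 30000 sorted cells of each genotype were tagged with antibodies and both genotypes were run together in 1 droplet library. This made 4 pools of cells: WT and IkBKO in replicate 1, and WT and IkBKO in replicate 2. The labels do not say that the replicates came from separate mice, so no p-value measures the spread between mice. Each rests on the spread between these pools, which is in part estimated from all genes together.

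The genes belong to a pair of protein families. The immunity-related GTPases are enzymes that cells make when interferon gamma binds its receptor and its signalling raises transcription factors such as IRF1. They gather on vacuoles that hold intracellular pathogens and help to break them. Within this family Irgm1, Irgm2 and Igtp are regulators that sit on the cell's own membranes and keep the effector members inactive there, while Iigp1, Ifi47 and Tgtp2 are effectors. The guanylate-binding proteins, here Gbp2, Gbp3, Gbp4 and Gbp7, are larger GTPases that are recruited to the same vacuoles. In mouse marrow, Irgm1 is known for limiting the response of stem cells to interferon.

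Replicate 1 held 3721 WT cells with 43674115 UMIs and 3962 IkBKO cells with 62834572 UMIs. Replicate 2 held 4963 WT cells with 42165571 UMIs and 5383 IkBKO cells with 61278938 UMIs. A UMI is a tag that marks 1 captured RNA molecule. IkBKO cells were deeper in both libraries, with medians of 13709 and 9641 UMIs per cell against 9963 and 6983 in WT cells. Of all barcode sequences of passing cells, 39 occurred in both libraries. Markers of other blood cells were present in every pool. Levels are given in CPM, the UMIs of a gene per 1000000 UMIs of the pool. Of the 8 T and NK cell markers, Nkg7 alone was at 141 to 188 CPM and the other 7 summed to 13.02 to 25.4 CPM. The 7 mature neutrophil markers summed to 1348 and 1160 CPM in WT pools and to 168 and 201 CPM in IkBKO pools, and the 6 monocyte markers to 246 and 86.6 CPM in WT against 1000 and 242 CPM in IkBKO pools. None of the T and NK cell, B cell, dendritic, neutrophil or monocyte markers was at 0 in all pools. Summed RNA of a pool cannot tell more cells of a type from more RNA per cell, so the genes were also read within cell gates and per cell.

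The promoters are shown first, because the group is defined by a common inducer and its members can be compared for the motifs that the interferon factors bind. These are the GAS, or gamma-activated site, and the ISRE, or interferon-stimulated response element, which IRF1 binds. On the mm10 build (GRCm38), Irgm1 (11, 48861968 to 48871683), Tgtp2 (11, 49057194 to 49064206), Ifi47 (11, 49076587 to 49096974), Igtp (11, 58199556 to 58207591) and Irgm2 (11, 58199618 to 58222782) lie on chromosome 11. Gbp7 (142530342 to 142550149), Gbp3 (142560026 to 142573209) and Gbp2 (142620602 to 142638008) lie side by side on chromosome 3 and Gbp4 (105115767 to 105139586) lies on chromosome 5. All 10 members are annotated as protein-coding genes. RefSeq promoter sequences of GRCm38.p6 were matched by symbol for 8 members, all but Iigp1 and Gbp4, with 9 start sites. The 250 bases before each start were searched on both strands for TTCNNNGAA (GAS) and GAAANNGAAA (ISRE type). Upstream of Igtp, Tgtp2, Gbp7 and Gbp3 the stretch from 150 to 20 bases before the start is shown, with motif matches in capitals. Ifi47 is shown as the member with no match to either motif in its window. These are chr11:58199406-58199536 on the plus strand for Igtp, chr11:49064232-49064362 on the minus strand for Tgtp2, chr3:142530186-142530316 (plus) for Gbp7, chr3:142559894-142560024 (plus) for Gbp3 and chr11:49076437-49076567 (plus) for Ifi47, each written 5′ to 3′ in the direction of the gene.
Igtp: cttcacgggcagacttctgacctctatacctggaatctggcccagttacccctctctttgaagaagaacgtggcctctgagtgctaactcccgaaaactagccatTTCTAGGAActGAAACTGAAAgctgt
Tgtp2: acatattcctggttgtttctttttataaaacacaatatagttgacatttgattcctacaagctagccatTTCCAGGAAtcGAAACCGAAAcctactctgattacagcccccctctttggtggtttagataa
Gbp7: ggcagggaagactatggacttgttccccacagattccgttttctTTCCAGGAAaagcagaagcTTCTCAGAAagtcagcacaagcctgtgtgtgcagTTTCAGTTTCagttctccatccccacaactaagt
Gbp3: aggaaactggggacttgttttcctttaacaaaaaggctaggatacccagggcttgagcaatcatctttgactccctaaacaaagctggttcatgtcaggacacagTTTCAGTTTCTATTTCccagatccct
Ifi47: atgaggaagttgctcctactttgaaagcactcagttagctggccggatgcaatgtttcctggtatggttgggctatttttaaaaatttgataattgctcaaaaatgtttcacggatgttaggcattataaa

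For Irgm2 (chr11:58214898-58214927, plus), Irgm1 (chr11:48871428-48871457, minus) and Gbp2 (chr3:142620594-142620623, plus), 30 bases around the match are shown in the same way.
Irgm2: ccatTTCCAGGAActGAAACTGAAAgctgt
Irgm1: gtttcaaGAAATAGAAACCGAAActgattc
Gbp2: actcttttagTTTCACTTTCactgtcttaa

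The GAS letters occurred in 4 of the 9 windows of the 8 genes (Gbp7, Igtp, Irgm2 and Tgtp2). Of 32817 RefSeq promoter windows of the same length, 7.01% held them. The ISRE-type letters occurred in 7 of the 9 windows, against 2.97% of those windows. Only Ifi47 and the second start site of Gbp3 had no ISRE-type match. In Igtp, Irgm2 and Tgtp2 the GAS match was followed after 2 bases by the ISRE-type match. The windows of Igtp and Irgm2 are nearly the same sequence, so they are not separate examples. Tgtp2 also shares most of the bases at and just before the matches with them, so it may not be separate either. In Gbp3 and Irgm1 the 2 ISRE-type matches overlap. A match describes the letters only, and no binding was measured.

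Over all LSK cells the regulators divided, with Igtp higher in IkBKO pools and Irgm1 and Irgm2 not passing the test. Igtp RNA stood at 13.8 and 17.7 CPM in WT and at 41.3 and 34.0 CPM in IkBKO pools of replicates 1 and 2. Both IkBKO pools lay above both WT pools, and the rise passed the test (log2 fold change 1.35 ± 0.19 SE, edgeR adjusted p = 0.0247). Irgm1 stood at 33.7 and 36.4 CPM in WT and at 39.5 and 35.5 CPM in IkBKO pools. The pools of the genotypes overlapped, and the log2 fold change of 0.19 ± 0.10 did not pass (edgeR adjusted p = 0.254). Irgm2 stood at 6.48 and 11.2 CPM in WT and at 9.87 and 10.5 CPM in IkBKO pools. Its pools also overlapped (0.34 ± 0.21, edgeR adjusted p = 0.321). Within replicate 2, both Irgm1 and Irgm2 were a little lower in IkBKO than in WT cells (log2 ratio of CPM −0.03 and −0.10). In the GENCODE annotation the Igtp and Irgm2 genes overlap by 7974 bases on the same strand, so reads in the overlap may not be assigned to the right gene. The RefSeq start of Irgm2 used for its promoter, 58214977, lies past the GENCODE end of Igtp, so the overlap depends on the annotation.

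Among the effectors, Ifi47 rose by a small amount and the larger difference of Iigp1 did not pass. Iigp1, on chromosome 18 (60376027 to 60392634), encodes an effector that damages the vacuole of Toxoplasma. It stood at 14.9 and 28.7 CPM in WT and at 66.2 and 63.2 CPM in IkBKO pools. Both IkBKO pools were above both WT pools, but the WT pools differed from each other and the log2 fold change of 1.72 ± 0.33 did not pass (edgeR adjusted p = 0.0696). Ifi47 stood at 60.1 and 60.0 CPM in WT and at 84.0 and 70.5 CPM in IkBKO pools. The groups did not overlap, and the change of 0.45 ± 0.10 passed (edgeR adjusted p = 0.0396). Tgtp2 stood at 8.31 and 12.4 CPM in WT and at 15.7 and 12.8 CPM in IkBKO pools. Its pools lay close together in replicate 2, and the change of 0.57 ± 0.26 did not pass (edgeR adjusted p = 0.22). Tgtp2 has a near-identical neighbour, Tgtp1, and the split of reads between them is uncertain.

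Of the guanylate-binding proteins, Gbp3 and Gbp4 rose. Gbp3 stood at 15.3 and 13.5 CPM in WT and at 43.3 and 33.0 CPM in IkBKO pools. The groups were well apart in both libraries (1.48 ± 0.10, edgeR adjusted p = 0.00194). Gbp4 was counted at 62 and 65 UMIs (1.42 and 1.54 CPM) in WT and at 231 and 372 UMIs (3.68 and 6.07 CPM) in IkBKO pools. Its change of 1.77 ± 0.22 also passed (edgeR adjusted p = 0.00941). Gbp2 stood at 13.8 and 21.9 CPM in WT and at 32.2 and 30.9 CPM in IkBKO pools. Its groups did not overlap either, but the change of 0.94 ± 0.22 missed the threshold (edgeR adjusted p = 0.0751). Gbp7, known to bind parts of the autophagy and oxidase machinery, stood at 47.7 and 63.8 CPM in WT and at 71.1 and 70.5 CPM in IkBKO pools. It did not pass either (0.45 ± 0.14, edgeR adjusted p = 0.0909).

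**Figure D1:**
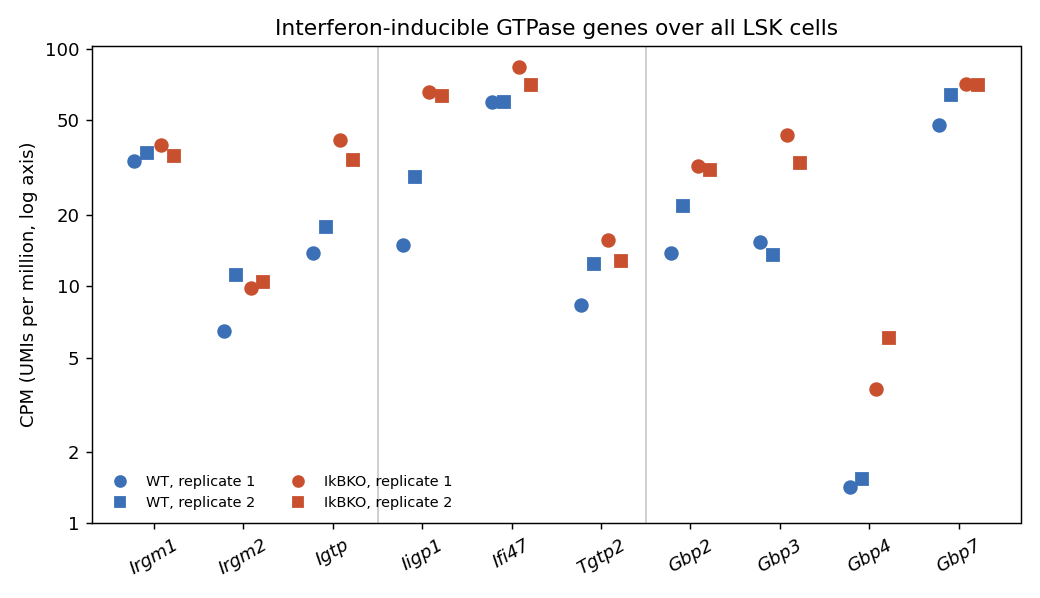
Level of each gene over all LSK cells in CPM on a log axis, 1 point per pool, with WT in blue and IkBKO in red, circles for replicate 1 and squares for replicate 2. From left to right stand the regulators, the effectors and the guanylate-binding proteins. For Igtp, Iigp1, Ifi47, Tgtp2 and the 4 guanylate-binding protein genes both IkBKO points lie above both WT points. The points of Irgm1 and Irgm2 overlap. How often both IkBKO points lie above both WT points was not counted over all genes.

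In all, 4 of the 10 genes (Igtp, Ifi47, Gbp3 and Gbp4) were called higher and 0 lower, where 7.13% of 14742 tested genes were called higher and 6.19% lower. The median log2 fold change of the 10 genes was 0.76, and that of all tested genes was −0.0064. The fold was larger in replicate 1 than in replicate 2: the summed level of the 10 genes went from 216 to 407 CPM (1.89-fold) in replicate 1 and from 267 to 367 CPM (1.37-fold) in replicate 2. Without the low-count filter Igtp was not called (edgeR adjusted p = 0.074) and the other 3 were. The 4 calls rest on the comparison within libraries. Without the replicate block no gene of the 10 passed, with 6 at an unadjusted p under 0.05. DESeq2 with the block called 7 of the 10 (these 4, Iigp1, Gbp2 and Gbp7). The share of all genes called in these other fits was not counted. With a single pool left out, which also drops the block, none passed without the WT or the IkBKO pool of replicate 1, only Iigp1 without the WT pool of replicate 2, and Igtp and Gbp3 without the IkBKO pool of replicate 2.

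The gates divide the LSK cells by UMIs of 1 lineage gene: at least 1 of Mecom (a stem cell transcription factor), 3 of Dntt (a DNA polymerase of lymphoid progenitors), 20 of Mpo (a myeloid granule enzyme), 3 of Pf4 (a platelet granule protein) and 5 of Car1 (a carbonic anhydrase of red cell progenitors). Each marker list holds the gene that sets its gate, so the gates were checked by the other genes of the list. The 6 other lymphoid markers summed to 629.8 to 855 CPM in the Dntt gate and to at most 303 CPM in the remaining 4 gates. The 6 other erythroid markers summed to 1330.02 to 2717 CPM in the Car1 gate and to at most 926 CPM elsewhere among the gates. The same sums were 6479.8 to 13386 against at most 2404 CPM for myeloid markers in the Mpo gate, and 308 to 801 against at most 187 CPM for megakaryocyte markers in the Pf4 gate. The Mecom gate was not set apart in this way: its 7 other stem cell markers summed to 452 to 1169 CPM, which overlapped the Pf4 gate (391 to 1056 CPM) and the cells of no gate (331 to 958 CPM). Of 18029 cells 9469 lay in exactly 1 gate, 1188 in several and 7372 in none, and 40.7% of the cells in the Pf4 gate were also in the Mecom gate. The genotypes filled the gates differently. The Mpo gate held 339 and 40 WT but 1473 and 510 IkBKO cells, the Dntt gate 748 and 962 WT but 264 and 527 IkBKO cells, and the Car1 gate only 52 and 9 WT but 253 and 224 IkBKO cells. When the summed level of the 10 genes was recomputed with the same mix of gates in all pools, the mean log2 difference was 0.93 in place of 0.69. This step was not planned beforehand. By library it gave 1.24 and 0.61 in place of 0.92 and 0.46. It gives more weight to small groups, such as the 30 and 7 WT cells of replicate 2 in exactly the Mpo and Car1 gates.

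In the Mecom gate 7 of the 10 genes were called higher and 0 lower, where 6.2% of genes were called higher and 4.37% lower. The called genes were Igtp (1.496 ± 0.16), Gbp4 (2.63 ± 0.29), Gbp3 (1.40 ± 0.12), Gbp2 (0.74 ± 0.13), Tgtp2 (0.72 ± 0.18), Gbp7 (0.54 ± 0.09) and Ifi47 (0.44 ± 0.09). Igtp stood at 16.2 and 19.98 CPM in WT and at 58.1 and 43.6 CPM in IkBKO cells. Iigp1 stood at 25.0 and 37.3 CPM in WT and at 124 and 98.6 CPM in IkBKO cells, but its log2 fold change of 1.86 ± 0.33 did not pass (edgeR adjusted p = 0.138). Irgm1 (0.31 ± 0.10, edgeR adjusted p = 0.0681) and Irgm2 (0.46 ± 0.16, edgeR adjusted p = 0.0912) did not pass either in the main fit. Both passed with DESeq2 size factors (edgeR adjusted p = 0.018 and 0.025) and without the low-count filter (0.0097 and 0.0088). Both also passed under each of the other gate rules, and Irgm2 after thinning (edgeR adjusted p = 0.0015). Neither passed in the DESeq2 test. Both IkBKO pools of this gate lay above both WT pools for each of the 10 genes, but this order was not counted over all genes. Without the block, 4 were called (Igtp, Iigp1, Gbp3 and Gbp4), and the same 4 with any single pool left out. Markers of several lineages also differed between genotypes in this gate. Of the stem cell markers 5 of 8, and of the tested lymphoid markers 4 of 6, were called lower. Of the myeloid markers 4 of 7, and of the mast cell and basophil markers 4 of 6, were called higher. The myeloid markers summed to 1471 and 478 CPM in WT and to 3604 and 1569 CPM in IkBKO cells, and the part of these markers in the result was not tested.

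In the Dntt gate 4 genes were called higher (6.81% of all genes higher, 5.95% lower): Igtp (0.96 ± 0.15), Ifi47 (0.41 ± 0.10), Gbp3 (1.42 ± 0.14) and Gbp4 (2.30 ± 0.32). Gbp4 stood at 2.94 and 1.52 CPM in WT and at 7.51 and 12.5 CPM in IkBKO cells. For Irgm2, Tgtp2, Gbp2 and Gbp7 the IkBKO pool of replicate 1 lay above both WT pools and that of replicate 2 did not. Iigp1 stood at 12.1 and 18.4 CPM in WT and at 78.6 and 29.1 CPM in IkBKO cells (1.72 ± 0.87, edgeR adjusted p = 0.539). Gbp2 stood at 9.94 and 13.5 CPM in WT and at 32.2 and 11.96 CPM in IkBKO cells (0.82 ± 0.80). Irgm2 (0.28 ± 0.49), Tgtp2 (0.44 ± 0.21) and Gbp7 (0.46 ± 0.25) did not pass either. Irgm1 was at 34.0 and 28.3 CPM in WT against 29.8 and 27.6 CPM in IkBKO cells (−0.03 ± 0.13, edgeR adjusted p = 0.935). DESeq2, or edgeR without the block, called Gbp3 and Gbp4 only. Without the WT pool of replicate 1 or the IkBKO pool of replicate 1 these 2 were called, without the WT pool of replicate 2 only Gbp3 was, and without the IkBKO pool of replicate 2 Gbp3, Igtp and Iigp1 were. In the same gate 6 of 7 tested stem cell markers were called lower, and 4 of 6 tested B cell markers, 3 of 7 myeloid and 3 of 5 tested monocyte markers higher. The B cell markers summed to 100.1 and 132 CPM in WT and to 219.6 and 253 CPM in IkBKO cells, and the part of these markers in the result was not tested.

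In the Mpo gate 4 of 9 tested genes were called higher, where 0.164% of 11607 genes were called higher and 0.138% lower. Iigp1 stood in WT cells at 1.94 and 2.25 CPM, from only 15 and 2 UMIs. In IkBKO cells it stood at 18.1 and 11.9 CPM (3.13 ± 0.36, edgeR adjusted p = 0.0112). Igtp went from 6.61 and 5.63 CPM (51 and 5 UMIs) to 23.0 and 17.9 CPM (1.81 ± 0.25, edgeR adjusted p = 0.0237). Gbp2 (1.76 ± 0.27, from 42 and 4 WT UMIs) and Gbp3 (1.13 ± 0.17, from 179 and 19) were called too. Gbp7 (0.80 ± 0.17), Irgm1 (0.40 ± 0.19), Ifi47 (0.38 ± 0.16), Irgm2 (0.97 ± 0.42) and Tgtp2 (1.15 ± 0.47) did not pass, and the WT cells held only 18 and 3 UMIs of Irgm2 and 15 and 4 of Tgtp2. Gbp4 was too low to test, with 2 WT UMIs against 20 IkBKO UMIs, a ratio of 1.88 with a 95% counting interval of 0.457 to 16.6. The WT pool of replicate 2 held 40 cells, in which the mature neutrophil markers summed to 9006 CPM against 261 to 818 CPM in the other 3 pools of the gate. The part of these cells in the result was not tested. Without that pool and without the block only Iigp1 was called, without the WT pool of replicate 1 none was (5 at an unadjusted p under 0.05), and without the IkBKO pool of replicate 1 Iigp1 and Gbp2 were. DESeq2 and edgeR without the block each called Iigp1 only, and 0 were called after every cell was thinned to 3000 UMIs (5 at an unadjusted p under 0.05 in edgeR).

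In the Pf4 gate 2 of 9 tested genes were called higher (0.73% of genes higher, 0.73% lower). Igtp stood at 12.6 and 21.7 CPM in WT and at 58.0 and 37.0 CPM in IkBKO cells (1.37 ± 0.27, edgeR adjusted p = 0.0226). Gbp7 stood at 47.5 and 76.1 CPM in WT and at 90.4 and 90.6 CPM in IkBKO cells (0.56 ± 0.14, edgeR adjusted p = 0.0454). Gbp3 showed a wide WT spread, 3 and 29 UMIs (2.09 and 13.7 CPM), against 21.6 and 24.02 CPM in IkBKO cells (1.43 ± 0.37, edgeR adjusted p = 0.107). Iigp1 (1.20 ± 0.24, edgeR adjusted p = 0.068) and Ifi47 (0.47 ± 0.13, edgeR adjusted p = 0.0561) missed the threshold. Irgm1 (0.33 ± 0.20), Irgm2 (0.53 ± 0.47), Tgtp2 (0.80 ± 0.47) and Gbp2 (0.496 ± 0.24) did not pass, and Gbp4, with 0 and 7 WT and 7 and 40 IkBKO UMIs, was too low to test. All 4 tested lymphoid markers were called lower in IkBKO cells of the gate, and their part in the result was not tested. The calls were not kept by DESeq2 or without the block, which made 0 calls among the 10 genes (3 and 5 at an unadjusted p under 0.05). Without either pool of replicate 1 none was called, without the WT pool of replicate 2 Gbp3 and Iigp1 were, and without the IkBKO pool of replicate 2 only Igtp was.

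In the Car1 gate all 9 tested genes were called higher (1.79% of genes higher, 1.67% lower), but the 52 and 9 WT cells of the gate held only 123 and 20 UMIs of the 10 genes. Ifi47 stood at 24.6 and 15.3 CPM in WT and at 125 and 68.1 CPM in IkBKO cells (2.35 ± 0.28, edgeR adjusted p = 6.9e-11). Gbp7 stood at 44.0 and 20.5 CPM in WT and at 148 and 72.9 CPM in IkBKO cells (1.80 ± 0.25, edgeR adjusted p = 9.3e-09). Igtp went from 10.2 and 5.12 CPM (10 UMIs and 1 UMI) to 108 and 35.6 CPM (3.38 ± 0.37, edgeR adjusted p = 9.6e-13). Gbp2 went from 8.19 and 5.12 CPM (8 UMIs and 1 UMI) to 73.6 and 46.8 CPM (3.198 ± 0.40, edgeR adjusted p = 2.7e-10). The IkBKO pool of replicate 1 was the higher of the 2 for each of these genes. Irgm1 stood at 29.7 and 35.8 CPM in WT and at 99.5 and 37.3 CPM in IkBKO cells (1.47 ± 0.29, edgeR adjusted p = 1.4e-04), so the genotypes were close in replicate 2. Tgtp2 stood at 6.14 and 10.2 CPM (6 and 2 UMIs) in WT and at 42.6 and 8.85 CPM in IkBKO cells (2.42 ± 0.47, edgeR adjusted p = 1.4e-04), and its pools overlapped.

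For 3 genes of the Car1 gate the WT level rests on 1 or 2 UMIs, and the ratio is given with its 95% counting interval in place of a fitted fold. Iigp1 had 2 WT UMIs against 1011 in IkBKO cells, a ratio of 71.1 (19.6 to 588). Gbp3 had 2 against 232, a ratio of 16.3 (4.47 to 136), and Irgm2 had 1 against 99, a ratio of 13.9 (2.44 to 556). Gbp4 had 0 UMIs in WT and 16 in IkBKO cells (1.92 CPM), which is below the limit that a count of 0 allows in WT (2.56 CPM), and no fold is given. Counting intervals cover counting error only. Of the erythroid markers 4 of 7 were called lower, and their summed level was 4918 and 5234 CPM in WT but 3865 and 3815 CPM in IkBKO cells of the gate. Klf1, an erythroid transcription factor, stood at 220 and 240.5 CPM in WT against 136 and 144 CPM in IkBKO cells. Klf1 was picked after its values were seen. All 5 tested myeloid markers were called higher, and the myeloid list summed to 146 and 107 CPM in WT against 433 and 263 CPM in IkBKO cells. The T and NK cell marker Nkg7 stood at 89.1 and 51.2 CPM in WT against 145 and 133 CPM in IkBKO cells, while the other 7 of that list summed to at most 1.05 CPM. The part of these markers in the result was not tested. DESeq2 called 5 of the 10 genes and gave no adjusted p for Gbp3, Tgtp2 and Irgm2. EdgeR called 2 without the block (Gbp2 and Gbp3) and 3 after thinning (Ifi47, Igtp and Iigp1), where Gbp3 and Irgm2 were not tested. Without the WT pool of replicate 1 none was called (3 at an unadjusted p under 0.05), without the WT pool of replicate 2 there were 2, without the IkBKO pool of replicate 1 there were 5 and without that of replicate 2 all 9.

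**Figure D2:**
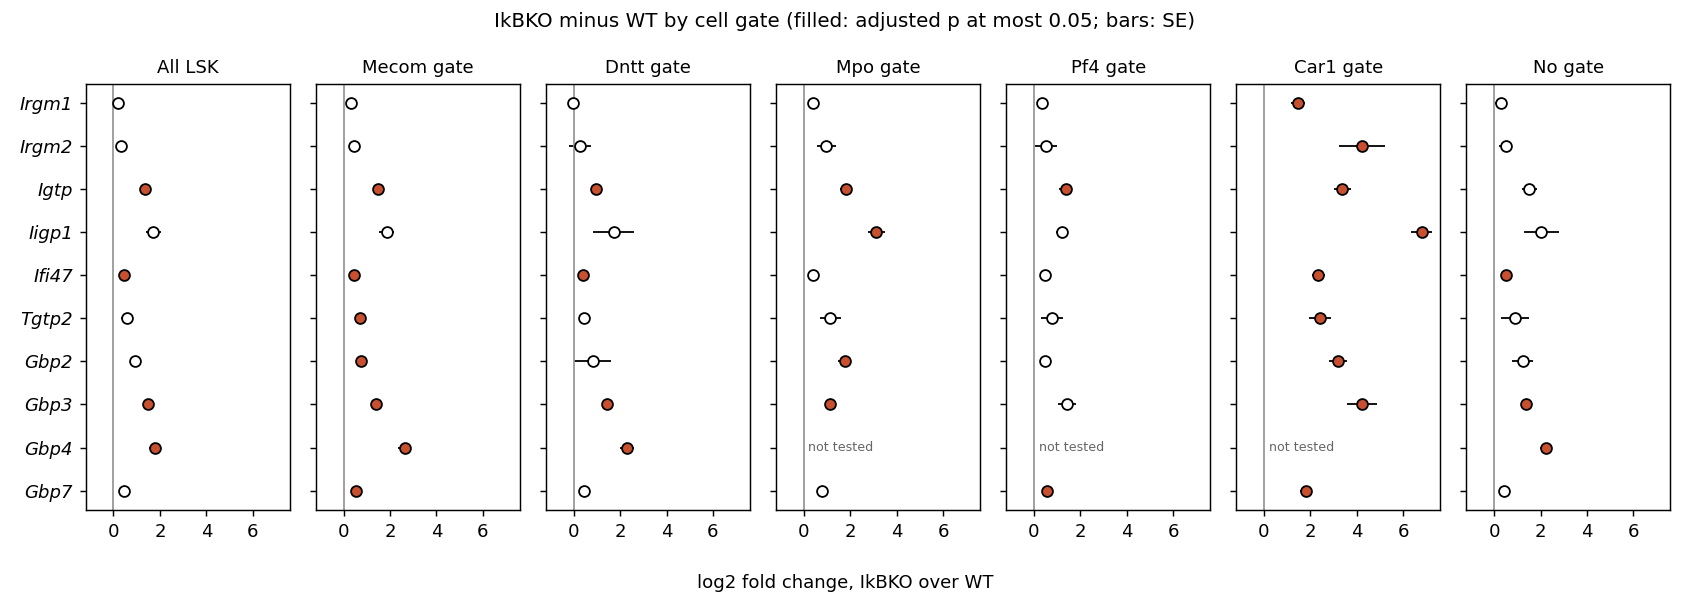
Log2 fold change of IkBKO over WT for the 10 genes in all LSK cells, in each gate and in cells of no gate. Points are edgeR estimates with bars of 1 SE, filled where the adjusted p was at most 0.05; Gbp4 was too low to test in the Mpo, Pf4 and Car1 gates. Nearly all points lie right of 0, with Irgm1 in the Dntt gate at −0.03, and in the Car1 gate the points of Iigp1, Gbp3 and Irgm2 rest on 1 or 2 WT UMIs.

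Cells outside the 5 gates gave 3 calls, all higher (7.5% of genes higher, 4.89% lower): Ifi47 (0.52 ± 0.10), Gbp3 (1.39 ± 0.10) and Gbp4 (2.23 ± 0.23). Gbp3 stood at 13.5 and 11.5 CPM in WT and at 35.6 and 28.9 CPM in IkBKO cells. Iigp1 stood at 14.7 and 27.005 CPM in WT and at 108 and 64.3 CPM in IkBKO cells and did not pass (2.04 ± 0.76, edgeR adjusted p = 0.437). Igtp (1.53 ± 0.32, edgeR adjusted p = 0.1697), Gbp2 (1.23 ± 0.46), Tgtp2 (0.89 ± 0.61), Irgm2 (0.50 ± 0.27), Gbp7 (0.45 ± 0.23) and Irgm1 (0.30 ± 0.25) did not pass either. With the IkBKO pool of replicate 2 left out 6 genes were called, and without the low-count filter also 6. The Ifi47 call was lost without the block (edgeR adjusted p = 0.337), without the WT pool of replicate 1 (0.378) or of replicate 2 (0.755) and without the IkBKO pool of replicate 1 (0.831), where its log2 fold change was 0.24. Gbp3 and Gbp4 were called in each of these fits.

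Cells outside the gates differed between genotypes in other markers too. Of the stem cell markers 5 of 7 tested, and of the lymphoid markers 4 of 6 tested, were called lower, and 5 of 7 erythroid and 4 of 6 mast cell and basophil markers higher. The 7 mature neutrophil markers summed to 3329 and 2138 CPM in WT and to 49.5 and 154 CPM in IkBKO cells, with 2 of the 7 called lower. The immunoglobulin gene Igkc stood at 16.4 and 135 CPM in WT and at 559 and 1706 CPM in IkBKO cells and was not called, while the 6 other B cell markers summed to 45.9 and 43.1 CPM in WT and to 45.6 and 47.04 CPM in IkBKO cells. The part of these markers in the result was not tested within this group of cells. Over all LSK cells, 5692 cells held at least 3 UMIs of the T and NK cell, the B cell or the dendritic list or at least 10 of the mature neutrophil list. Leaving them out kept the 4 calls and added Gbp7. That rule took many cells, so a stricter one was chosen after seeing the data, with at least 10 UMIs, or 30 for the neutrophil list: leaving out its 859 cells gave the same 4 calls.

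Whether the genotype effect differed between gates was tested in 1 model over cells of exactly 1 gate. Ifi47 passed the joint test (edgeR adjusted p = 0.0012), where 0.769% of 12354 genes passed. Its effect was larger in the Car1 than in the Mecom gate by 2.07 ± 0.31 on the log2 scale (edgeR adjusted p = 2.8e-04), with 21 and 1 WT UMIs in the Car1 cells of exactly 1 gate. In those cells Ifi47 stood at 23.9 and 7.48 CPM in WT against 123 and 68.3 CPM in IkBKO pools. Its effect in the Dntt, Mpo and Pf4 gates differed from that in the Mecom gate by −0.06 ± 0.18, 0.10 ± 0.20 and 0.16 ± 0.20, none of which passed. Over all genes 0.154%, 0.0729%, 0% and 0.583% differed from the Mecom gate in the Dntt, Mpo, Pf4 and Car1 gates. Without the Car1 gate no gene of the 10 passed the joint test (1 at an unadjusted p under 0.05), and none without the block (2 at an unadjusted p under 0.05). Gbp3 did not pass the joint test (edgeR adjusted p = 0.0665). Pools of different gates from 1 genotype and library came from the same sorted cells, and all pools of a library shared its droplet run, so they are not independent samples.

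In WT cells the genes had different levels across the gates, and 9 of the 10 passed the joint test of WT level between gates, as did 56.1% of 11674 genes. In all cells of a gate Iigp1 stood at 25.0 and 37.3 CPM in the Mecom gate and at 21.6 and 45.4 CPM in the Pf4 gate. It stood at 12.1 and 18.4 CPM in the Dntt gate, 1.94 and 2.25 CPM in the Mpo gate and 2.05 and 0 CPM in the Car1 gate, where the 0 allows up to 15.3 CPM. The pools of the Mecom and Pf4 gates overlapped, as did those of the Mpo and Car1 gates. In cells of exactly 1 gate Iigp1 was lower than in the Mecom gate, with log2 differences of −1.06 ± 0.15 (Dntt), −3.76 ± 0.30 (Mpo) and −0.97 ± 0.26 (Pf4), each past the threshold. These WT cells held only 12 and 1 UMIs of Iigp1 in the Mpo gate and 12 and 18 in the Pf4 gate. Lower levels than in the Mecom gate were called for 9.04% of genes in the Dntt, 24.9% in the Mpo, 4.25% in the Pf4 and 16.1% in the Car1 gate, and higher levels for 8.33%, 21%, 4.61% and 14.9%.

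Against the Mecom gate, WT cells of the Mpo gate were lower in Irgm1 (−1.19 ± 0.18), Irgm2 (−2.23 ± 0.41), Igtp (−1.36 ± 0.26), Tgtp2 (−2.42 ± 0.40), Gbp2 (−2.15 ± 0.27) and Gbp7 (−1.16 ± 0.18). The WT cells of exactly the Mpo gate held 42 and 2 UMIs of Igtp, 27 and 4 of Gbp2, 11 and 3 of Tgtp2 and 11 and 2 of Irgm2. Ifi47 differed by −0.21 ± 0.14 and did not pass. Gbp3 was higher (0.97 ± 0.20, edgeR adjusted p = 2.0e-04), as were 21% of genes: it stood at 23.2 and 21.4 CPM in the Mpo gate and at 13.9 and 14.8 CPM in the Mecom gate. In the Dntt gate Gbp2 (−1.11 ± 0.17) and Irgm2 (−0.69 ± 0.24) were lower than in the Mecom gate. In the Pf4 gate Irgm1 (−0.86 ± 0.24) and Gbp3 (−1.36 ± 0.44, from 2 and 8 WT UMIs) were lower, and Irgm2, which was called lower too, had only 2 and 1 WT UMIs. In the Car1 gate Ifi47 was lower (−1.39 ± 0.29, from 21 UMIs and 1 UMI), and Gbp2 was called lower from only 6 and 0 UMIs, while Irgm1 (−0.24 ± 0.28) and Gbp7 (−0.53 ± 0.27) did not pass.

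**Figure D3:**
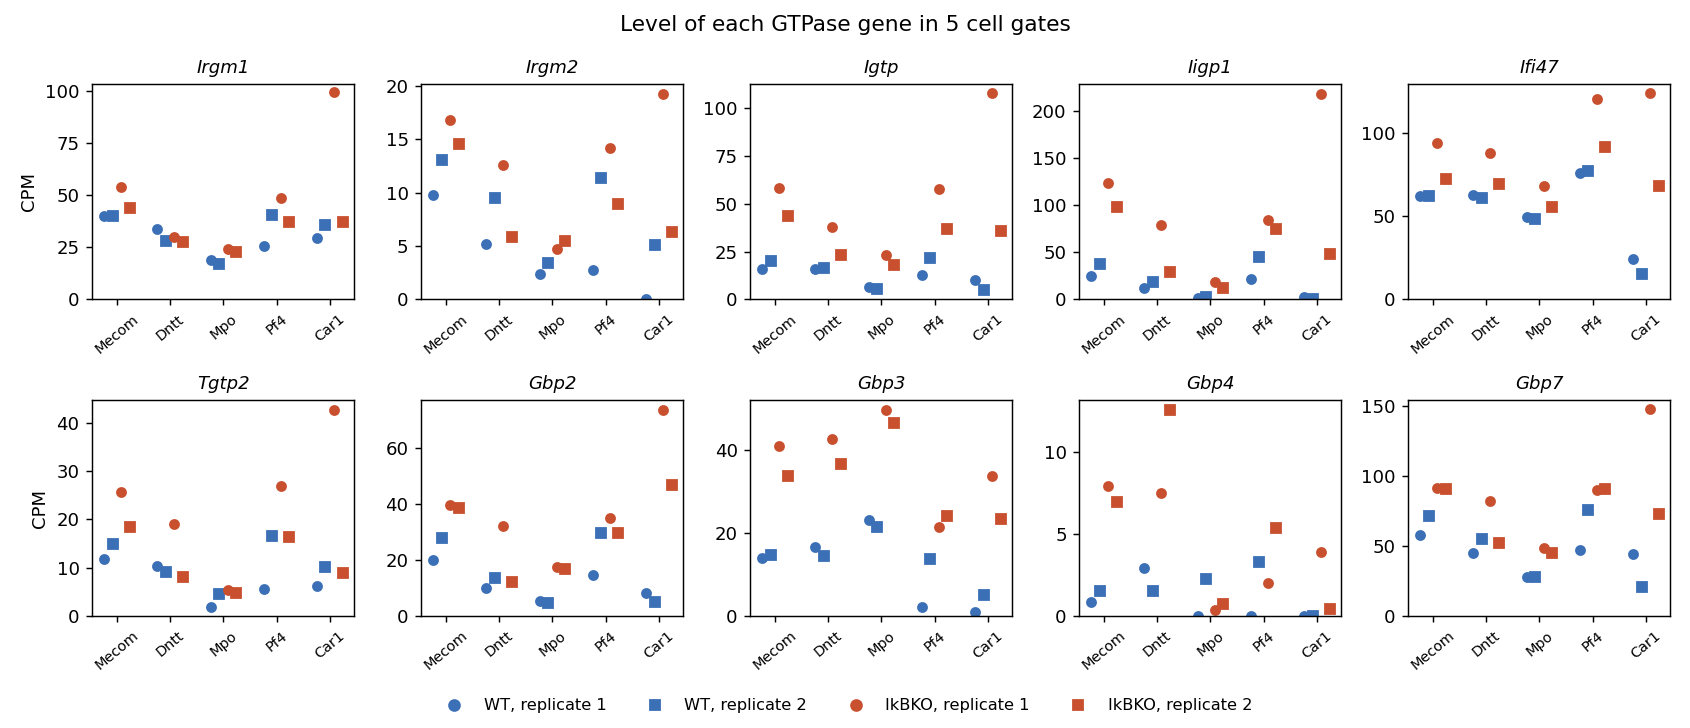
Level of each gene in CPM (linear axes from 0, each panel with its own range) in the 5 gates, 1 point per pool, with WT in blue and IkBKO in red, circles for replicate 1 and squares for replicate 2. In WT cells Iigp1 is near 0 in the Mpo and Car1 gates while Gbp3 is higher in the Mpo gate, at 23.2 and 21.4 CPM, than in the Mecom gate. The IkBKO circle of the Car1 gate stands above the square for all 10 genes.

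RNA of the 10 genes was found in more IkBKO than WT cells at equal depth. After thinning each cell to 3000 UMIs, which left out 243 shallower cells, 44.8% (95% exact interval 43.2 to 46.4%) and 51.3% (49.9 to 52.7%) of WT cells had a UMI of any of the 10 genes. The shares of IkBKO cells were 62.4% (60.9 to 63.9%) and 60.1% (58.8 to 61.4%), above both WT pools. Unthinned, the shares were 83.2% and 79.1% of WT and 95.2% and 89.7% of IkBKO cells. Iigp1 alone had a UMI in 4.45% and 7.07% of thinned WT cells and in 15.7% and 14.5% of thinned IkBKO cells. No cell type among these cells is known to lack the genes, so no background share from free RNA was set beside them, and the share in Mpo-gate WT cells, 33.9% and 32.5%, serves only as a low value.

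Cells with UMIs of several of the genes were also more frequent. At 3000 UMIs, 13.5% and 16.7% of WT and 29.4% and 26.7% of IkBKO cells had UMIs of at least 2 of the 10 genes, and 3.66% and 4.76% of WT and 13.8% and 10.9% of IkBKO cells had at least 3. In the Mecom gate the share with any was 50.05% and 54.9% in WT and 68.8% and 67.6% in IkBKO cells. In the Dntt gate it was 43.6% and 46.0% against 62.0% and 53.9%. In the Mpo gate 51.1% and 47.6% of IkBKO cells had a UMI, and in the Pf4 gate 39.8% and 49.0% of WT against 64.8% and 62.5% of IkBKO cells. After thinning, the 5% of cells with most UMIs of the 10 genes held 26.6% and 26.3% of them in WT and 30.1% and 28.3% in IkBKO pools. The mean was only 0.70 and 0.86 such UMIs per cell in WT and 1.53 and 1.30 in IkBKO pools. At such low counts this share depends on counting and on the mean. No expected share was computed, so it does not show whether the UMIs were spread or concentrated.

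**Figure D4:**
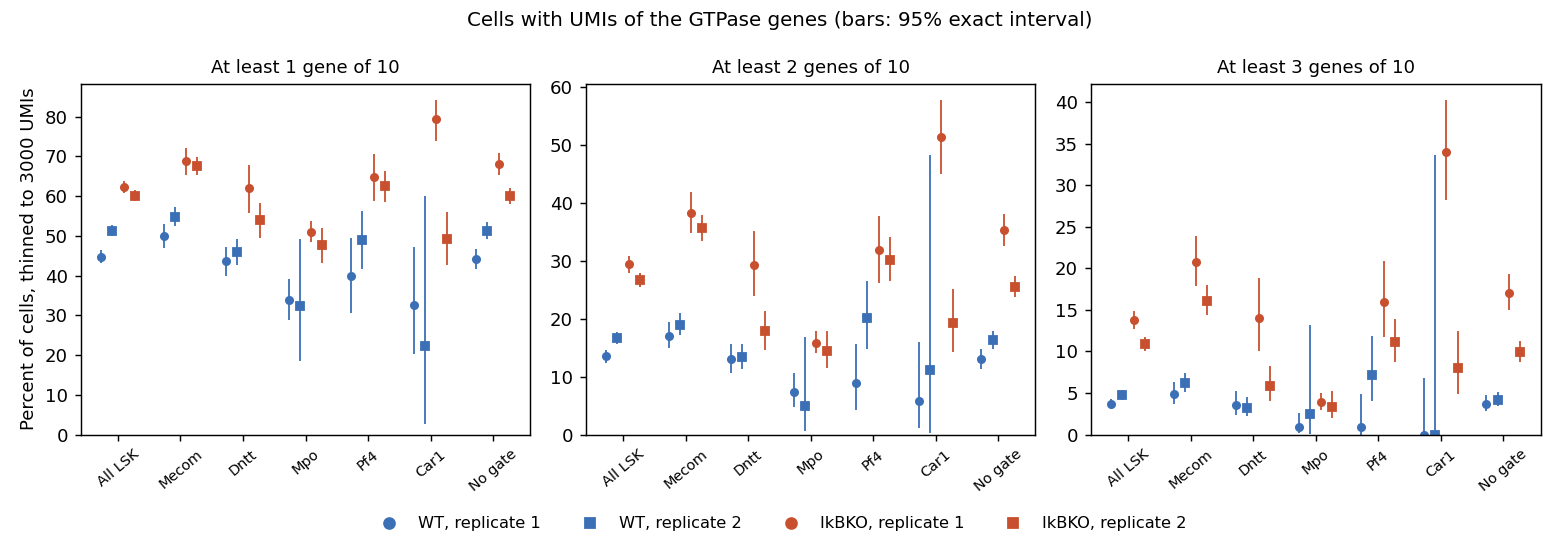
Percent of cells with a UMI of at least 1, 2 or 3 of the 10 genes after thinning to 3000 UMIs, by cell set and pool, with bars of 95% exact binomial intervals for counting error. WT is blue and IkBKO red, with circles for replicate 1 and squares for replicate 2. Over all LSK cells both IkBKO shares (62.4% and 60.1% with at least 1 gene) lie above both WT shares, and the WT intervals of the Car1 gate are wide because it held 52 and 9 cells.

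Other genes of the pathway were read from lists drawn up for these families. Over all LSK cells 7.13% of all tested genes were called higher and 6.19% lower. Of 12 tested further interferon-inducible GTPases 4 were called higher and 0 lower, with a median log2 fold change of 0.92. Among them were the guanylate-binding protein genes Gbp6 (1.46 ± 0.17) and Gbp9 (1.49 ± 0.27) and the immunity-related GTPase gene Gm4951 (1.91 ± 0.29). Of 14 tested genes of the receptor and its signalling 7 were called higher and 1 lower, with a median of 0.42. The receptor chains Ifngr1 (0.46 ± 0.08) and Ifngr2 (0.77 ± 0.12) and the transcription factors Irf1 (0.57 ± 0.08) and Irf8 (1.23 ± 0.13) rose over all LSK cells. By gate the list's median was 0.17 in the Mecom, 0.030 in the Dntt, 0.17 in the Mpo, 0.18 in the Pf4 and 0.54 in the Car1 gate. It gave 6 higher and 1 lower in the Mecom gate, 2 and 1 in the Dntt, 0 and 0 in the Mpo, 2 and 0 in the Pf4 and 3 and 0 in the Car1 gate. Of all tested genes 6.2%, 6.81%, 0.164%, 0.73% and 1.79% were called higher in these gates, in that order. The shares called lower were 4.37%, 5.95%, 0.138%, 0.73% and 1.67%. Outside the gates the median was 0.47, with 6 higher and 1 lower, against 7.5% and 4.89% of all tested genes. RNA of interferon gamma itself, Ifng, was at 0.0687 and 0.0237 CPM in WT and at 0.0637 and 0.0326 CPM in IkBKO pools, too low to test.

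Of 23 tested other genes known to be induced by interferon gamma, 17 were called higher and 0 lower over all LSK cells, with a median of 0.66. The shares of all tested genes there were 7.13% higher and 6.19% lower. Ifi30, a lysosomal thiol reductase, rose by 2.49 ± 0.13, the chemokine gene Cxcl9 by 3.28 ± 0.20 and the MHC class II gene H2-Eb1 by 2.48 ± 0.16. One of this list, Ly6a, picked after its values were seen, encodes Sca-1, the antigen of the sort: it stood at 52.4 and 90.3 CPM in WT and at 89.6 and 117 CPM in IkBKO pools (0.66 ± 0.13, edgeR adjusted p = 0.0334), and the part of the sort in these results was not tested. The type I interferon antiviral genes went the other way over all LSK cells. Of 21 tested, 0 were called higher and 10 lower, with a median of −0.71, among them Ddx58, an RNA sensor (−0.74 ± 0.09). By gate, this list gave 0 higher and 12 lower of 20 tested in the Dntt gate, and 1 and 4 of 20 in the Mecom gate. It gave 5 higher and 0 lower of 14 in the Car1 gate. No gene of the list was called among 18 tested in the Mpo gate and 17 in the Pf4 gate. Outside the gates 0 were called higher and 3 lower of 21. The shares of all tested genes called in these sets are those given above. Of 13 autophagy proteins that load or partner the GTPases only Gabarapl1 was called (−0.37 ± 0.08), and the list's median was −0.014. Map1lc3a (−0.38 ± 0.10) and Atg3 (0.24 ± 0.11) did not pass.

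**Figure D5:**
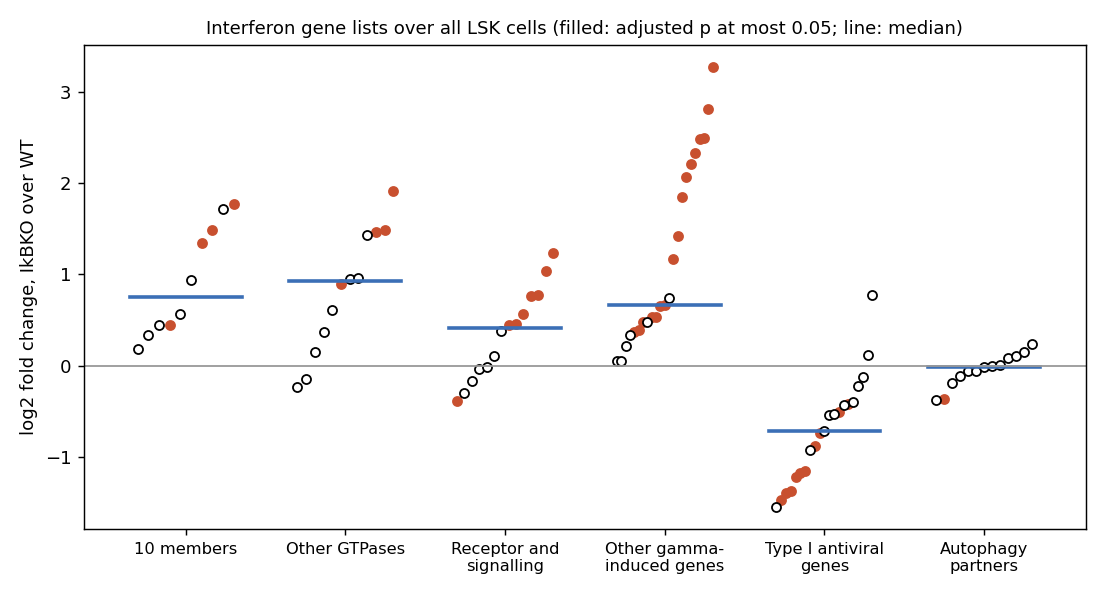
Log2 fold change of IkBKO over WT over all LSK cells for the tested genes of each list, 1 point per gene sorted within its list, filled where the edgeR adjusted p was at most 0.05, with a line at the list's median. The medians are 0.76 for the 10 GTPases, 0.92 for the other GTPases, 0.42 for receptor and signalling genes, 0.66 for other gamma-induced genes, −0.71 for type I antiviral genes and −0.014 for autophagy partners.

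The genes whose pattern was most like the summed level of the 10 were sought over the 20 pools of gate, genotype and library among 9628 genes with a mean of at least 5 CPM, on the scale of log2(CPM + 1) centred within library. The 6 closest were B2m (Pearson r 0.976), Gm4951 (0.964), Tgtp1 (0.949), H2-K1 (0.945), H2-Q4 (0.936) and H2-T22 (0.930). B2m and the 3 H2 genes encode chains of MHC class I and related molecules, and Gm4951 and Tgtp1 belong to the immunity-related GTPases. The points share libraries and 2 pools of the Car1 gate held few cells, so the r values are a description. Tgtp1 may share reads with Tgtp2.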

How the data were processed

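The deposited matrices hold raw UMI counts per gene and barcode, not normalized. The software was Cell Ranger 6.0.0 per the file headers, but Cell Ranger 7.0 and Seurat 4.3.0, with the build mm10, per the submitters' processing notes. The role of each tool and the rules behind the deposited quality call and genotype of each barcode: not given in the sources used here. Passing barcodes numbered 7683 of 9322 (82.4%) and 10346 of 24787 (41.7%) for replicates 1 and 2, and all were used with no further filter or doublet call.

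Counts were summed per library and genotype, over all cells and within gates, and tested with edgeR 4.0.16 (quasi-likelihood, robust, TMM, filterByExpr) in R 4.3.3, two-sided, with Benjamini-Hochberg adjustment over all genes tested and a threshold of 0.05. Replicate was a block, because the labels say that the conditions of a replicate were multiplexed; over 14742 genes deviations from the genotype means correlated at 0.55 between the pools of a replicate. The block leaves 1 residual degree of freedom among the 4 pools, so edgeR takes much of a gene's spread from the other genes. The size of adjusted p-values is therefore not to be compared between gates. Fold changes are after TMM scaling. The gate and WT level models used 20 and 10 pools of cells in exactly 1 gate. Standard errors are the size of the log2 fold change over the root of F. Levels are CPM of summed counts, and genes are not compared in level. Shares have exact binomial (Clopper-Pearson) intervals at 95%, for counting error only. A count of 0 allows up to 3 counts. The procedure was tested on simulated counts. Positions are GENCODE's for mm10.

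All 10 members were named in every comparison of genotypes (between gates only some are), with the 3 tested genes of smallest p per list, Ifng, Ifngr1, Ifngr2 and Irf1, and the 6 genes most like the summed level; others are said to be picked after their values were seen. Some genes under this rule are not reported here. The members, lists and gates were chosen with earlier results of these data known, and none of their patterns is independent support. The alternatives were DESeq2 1.42.0 and its size factors, no filter, no block, each pool left out, thinning, other gate rules and leaving out cells of other lineages or with most UMIs.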

Additional observations from a re-analysis of the deposited data

Results flagged for a closer look

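For Ifi47 the IkBKO effect differed between gates by a test of the difference itself. Ifi47 passed the joint test over the 5 gates (edgeR adjusted p = 0.0012), and its effect was larger in the Car1 than in the Mecom gate by 2.07 on the log2 scale. The joint call was lost without the replicate block and without the Car1 gate. Gbp3 passed only for the same pair of gates, with a fitted difference of 9.37 (edgeR adjusted p = 0.0219), but not jointly (edgeR adjusted p = 0.0665). The fitted Gbp3 value is no measure of size and supports no difference between gates, because the WT cells of exactly the Car1 gate had 0 UMIs of Gbp3 in both libraries. The IkBKO cells there had 110 and 81 UMIs (32.9 and 21.7 CPM), and the WT cells of that gate numbered 48 and 7.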

How the results depend on the processing

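The number of the 10 genes called higher (none was called lower) moved by over 1.5 times under some alternatives, and the cause was not tested. The share of all genes called was counted for the main fits only, so the counts under alternatives have no background beside them. A gene with no adjusted p under an alternative was counted as not called. Over all LSK cells it was 4, but 7 by DESeq2, 0 without the replicate block and 0 to 2 with 1 pool left out. In the Mecom gate it was 7, but 4 without the block and 4 to 4 with 1 pool left out. In the Dntt gate it was 4, but 2 by DESeq2, 2 without the block and 1 to 3 with 1 pool left out. In the Mpo gate it was 4, but 1 by DESeq2, 1 without the block, 0 after thinning to 3000 UMIs, 2 with the doubled gate threshold and 0 to 5 with 1 pool left out. In the Pf4 gate it was 2, but 0 by DESeq2, 5 without the low-count filter, 0 without the block, 0 after thinning, 1 with the doubled threshold, 4 with the gate gene per 10000 UMIs and 0 to 2 with 1 pool left out. In the Car1 gate it was 9, but 5 by DESeq2, 2 without the block, 3 after thinning and 0 to 9 with 1 pool left out. Outside the gates it was 3, but 6 without the filter and 2 to 6 with 1 pool left out. The joint test between gates called 1, but 6 without the filter, 0 without the block and 0 without the Car1 gate, an alternative chosen after seeing the data. For these 0 counts the genes at an unadjusted p under 0.05 were 6 (all cells, no block), 5 (Mpo gate, thinned), 3, 5 and 5 (Pf4 gate, DESeq2, no block, thinned), 2 and 1 (joint test).

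Signs changed only for values that had not passed. With 1 pool left out, Irgm1 outside the gates ranged from −0.067 (without the IkBKO pool of replicate 1) to 0.68, and in the Dntt gate Irgm1 ranged from −0.24 to 0.14, Irgm2 from −0.27 to 0.86 and Tgtp2 from −0.20 to 1.05. Irgm1 in the Dntt gate was 0.14 without the WT pool of replicate 1, 0.018 without the IkBKO pool of replicate 2, 0.090 with the doubled threshold and 0.040 per 10000 UMIs. Irgm2 there was −0.0059 without the WT pool of replicate 1 and −0.35 after thinning, and Gbp2 in the Pf4 gate was −0.045 with the doubled threshold. Under the alternatives that kept all pools, 53 single-gene values fell below the threshold, 37 passed it and 416 counted as unchanged. The 37 include values of Irgm1 and Irgm2 in the Mecom gate, each under several alternatives. The unchanged ones include values that had not passed in the main fit, so their number is no measure of how stable the calls were. They also include values at the same mix of gates in all pools, which have no test. With 1 pool left out, more calls were lost than gained. The count of 9 genes whose WT level differed between gates was 9 or 10 under its alternatives. The mean difference in the share of cells with a UMI of any of the genes was 13.2 percentage points at 3000 UMIs per cell, 12.02 at 2000 and 10.1 at 5000. The values of the Car1 gate rest on 52 and 9 WT cells.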
